A study of Rattus norvegicus with 6 samples.

Results

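Fibroblast growth factors (FGFs) and their receptors were measured in spinal cord of rats with a contusion, an injury made by striking the cord, and of uninjured rats. Total RNA of 3 contused samples, taken at the site of the blow on day 35, and of 3 uninjured samples was hybridised to 6 arrays, all from about thoracic segment 8. The members are the genes Fgf1, Fgf2, Fgf5, Fgf7, Fgf9, Fgfr1, Fgfr2 and Fgfr3, through every probe set that the array's annotation assigns to exactly 1 of them. This gave 14 of the 8740 non-control probe sets and 7 of the 4736 singly named genes. No such probe set was found for Fgfr3, which is not analysed here. The labels give no strain, sex, age, injury device or sham operation, and no time point for the uninjured rats, so surgery and elapsed time cannot be told apart from contusion. Nor do they state that the arrays of a group are separate animals, and p-values then reflect only the spread among these arrays, which may be technical.

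FGFs are signalling proteins that bind heparan sulfate on the cell surface and activate receptor tyrosine kinases. The activated receptor recruits adaptors that switch on the ERK kinase cascade, the AKT pathway and phospholipase C gamma, and ERK in turn induces inhibitors that dampen the signal. In spinal cord, Fgf1 and Fgf9 are known as products of neurons, motor neurons among them, and Fgf2 as a product of astrocytes. Fgfr1 is found on neurons and several other cell types, Fgfr2 on oligodendrocytes and Fgfr3 on astrocytes.

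Fgf9 was the one member whose change passed the test: it was 1.73-fold lower after contusion. Fgf1, Fgf2, Fgf5, Fgfr1 and Fgfr2 had no probe set past the threshold, and Fgf7 was too dim to be tested. Of 11 member probe sets that entered the limma fit, 1 had an adjusted p under 0.05, against 17.4% of all 6705 probe sets tested. That 1 was lower and 0 were higher, where 9.59% of all were lower and 7.79% higher. At an unadjusted p of 0.05 there were 3, with Fgf5 D64085_g_at and Fgfr1 S54008_i_at beside Fgf9, against 30.3% of all. The median log2 change over the 11 was 0.17, with 8 of them above 0, and the median over all tested probe sets was -0.0055. Of the 11, 7 are receptor probe sets, all of Fgfr1 or Fgfr2, so they are not separate genes. The 3 contused values lay on one side of the 3 uninjured values in 2 of the 11, against 34.8% of all.

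Signals are intensities as deposited. Probe sets differ in how brightly they hybridise, so a brighter signal is not read as a more abundant RNA. Brightness was used only to pick probe sets and genes to name. Signals summed over a list weigh its bright genes most. The floor, 61.6, is the pooled 25th percentile of all signals. Lower values were raised to it, and probe sets needed 3 or more arrays over it to enter the fit. On each array 73.1% to 76.0% of probe sets exceeded it, and the median signals were 122 to 127. Log2 changes are contused minus uninjured, so negative values are falls. The markers of spinal cord were present: 10 of 11 neuron and 9 of 9 oligodendrocyte marker genes on the array were tested, and Syt1 alone among them was at the floor on all 6 arrays. Uninjured array 3 stood apart in markers of meninges and fibroblasts, with a mean log2 level of -0.58 against 0.20 and 0.38 on uninjured arrays 1 and 2, all relative to the uninjured mean.

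**Figure D1:**
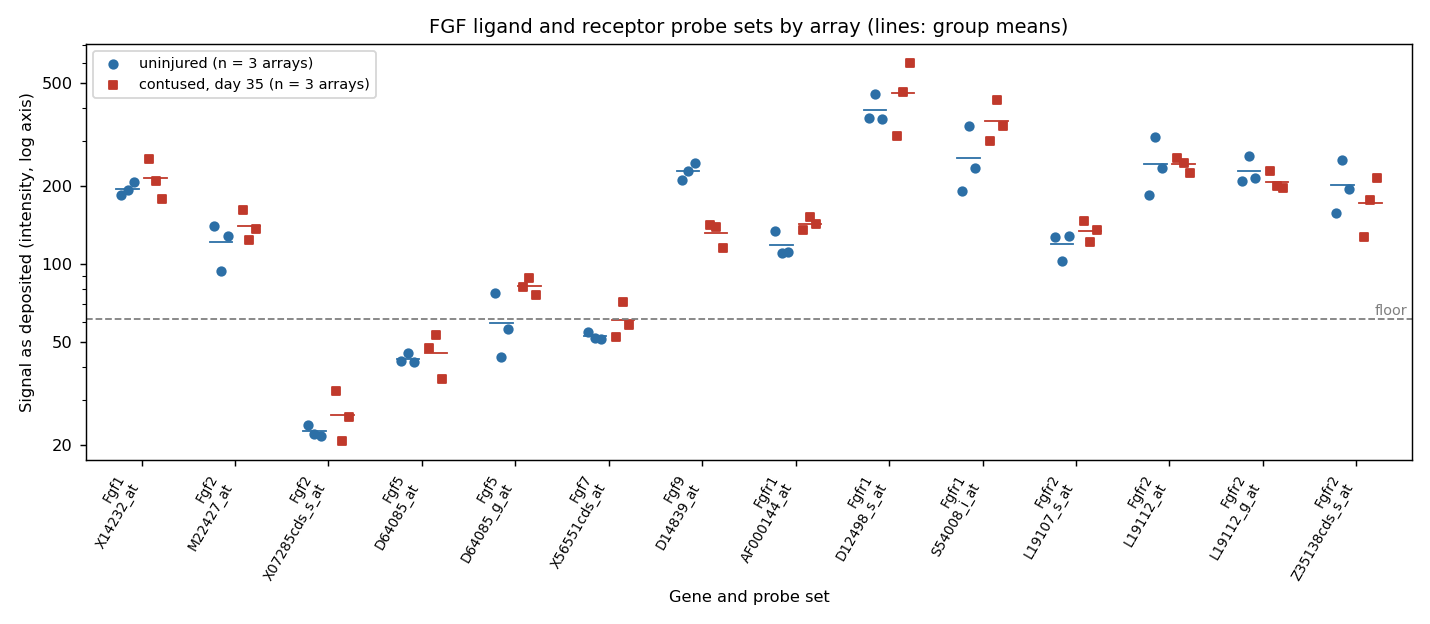
Signal as deposited (intensity, log axis) of the 14 FGF ligand and receptor probe sets on each array, with uninjured arrays as circles, contused arrays as squares, lines at the group means and the floor of 61.6 dashed. The contused Fgf9 signals (115 to 142) lie below all uninjured ones (211 to 245), and Fgf2 X07285cds_s_at and Fgf5 D64085_at lie under the floor on every array.

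Fgf9 encodes a secreted ligand first described as glia-activating factor. D14839_at was its only probe set here, so no second one could be compared. It gave 211, 230 and 245 on the 3 uninjured arrays and 142, 139 and 115 on the 3 contused arrays. The groups did not overlap, and every array was above the floor. The mean fell from 229 ± 17.3 to 132 ± 14.7 (signal, SD, n = 3). The log2 change was -0.79 (SE 0.15, 95% interval -1.12 to -0.46), with an adjusted p of 0.00476 in limma. That interval spans falls of 1.38-fold to 2.18-fold. Over all 15 alternative settings the log2 change stayed between -0.85 and -0.70 and the adjusted p at or under 0.0313, the highest being without uninjured array 3.

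The stretch of the rat genome just before the Fgf9 start site is shown because Fgf9 was the member that changed (RefSeq, GRCr8 build, chr15:36327108-36327357, plus strand, 5′ to 3′, 250 bases), with capitals marking its CpG dinucleotides.
Fgf9: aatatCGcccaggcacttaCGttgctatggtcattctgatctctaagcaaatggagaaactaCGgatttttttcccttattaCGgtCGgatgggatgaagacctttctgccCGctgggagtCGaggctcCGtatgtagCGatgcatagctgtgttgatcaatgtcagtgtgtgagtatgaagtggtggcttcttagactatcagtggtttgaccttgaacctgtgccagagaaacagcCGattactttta
It holds 10 CpG dinucleotides and 46.0% G plus C, against medians of 5 and 51.2% over 33469 rat promoter windows of that length. Common promoter motifs were searched on both strands. The TATA box, spelled TATAAA, is in 12.9% of all windows and the CAAT box, spelled CCAAT, in 34.0%. The GC box, searched as GGGCGG, is in 30.5%, and the cyclic AMP element, searched as TGACGTCA, in 1.59%. None of these letters is in the Fgf9 window. Windows were found for 7 of the 8 genes listed, Fgfr3 included but not Fgfr1. Fgfr2 had 37 CpG dinucleotides, Fgfr3 26 and Fgf5 21, whereas Fgf1 had 4, Fgf7 5 and Fgf2 9. The TATA box letters were found before Fgf5 and Fgf7, and those of the GC box before Fgf5, Fgfr2 and Fgfr3. Those of the CAAT box were found before Fgf7, Fgfr2 and Fgfr3, and those of the cyclic AMP element before none of the 7. The arrays measure RNA and not the activity of these stretches.

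Neuron markers were lower on the same arrays as Fgf9: 9 of 10 tested genes fell and 0 rose, with a median log2 change of -0.99. Among all 3955 genes, 9.91% were lower and 7.0% higher, and the median log2 change was -0.016. Summed over the neuron list, the signal of each contused array was 8678 to 9084 and of each uninjured array 16526 to 19317. The neurofilament genes Nefl and Nefm, the brightest of the list, went from 3292 ± 247 to 1764 ± 79.4 and from 2693 ± 260 to 1500 ± 83.5. Motor neuron markers had 2 of 7 lower and 1 higher (median -0.25), with summed signals of 1402 to 1493 against 1771 to 1948. Prph and Slc18a3, the brightest of these, had log2 changes of -0.25 (adjusted p = 0.306) and -0.57 (adjusted p = 0.0216, limma). Isl2 was the gene that rose (log2 change 0.68, adjusted p = 0.00792 in limma). Ache had the largest change of the list, a fall (log2 change -1.1, SE 0.14, adjusted p = 0.00048 in limma), and 2 of its 3 tested probe sets passed. Chat had a log2 change near 0 but a wide error (-0.03, SE 0.24, adjusted p = 0.948 in limma). The motor neuron markers thus did not move together. Fewer cells of a type and less RNA per cell cannot be told apart in such bulk tissue, and the part of the neuron markers in the Fgf9 result was not tested.

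Other cell types moved in their own ways on these arrays. Microglia and macrophage markers had 9 of 10 higher (median 0.97; summed signal 5623 to 6035 against 1596 to 1953), and Lgals3 and C1qb were the brightest. Oligodendrocyte markers had 5 of 9 lower (median -0.58; 14037 to 15130 against 17153 to 18240), while their brightest genes Mbp and Cnp had log2 changes of 0.00 and -0.12. Astrocyte markers had 2 of 9 higher and 0 lower (median 0.09; 12093 to 13255 against 11897 to 12708), with Aldoc and S100b brightest. Meninges and fibroblast markers had 4 of 10 higher (median 0.55; 12675 to 15013 against 6044 to 10540), with Ptgds and Igf2 brightest. Of 6 endothelium and pericyte markers, 0 were called in limma (0 at an unadjusted p of 0.05; median -0.15; 833 to 973 against 870 to 988), with Acta2 and Flt1 brightest. Schwann cell markers had 0 of 5 (2 at an unadjusted p of 0.05; median 0.31; 4294 to 5318 against 3522 to 3840), with Pmp22 and Ngfr brightest. At that unadjusted p, 30.3% of all probe sets tested in limma passed.

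**Figure D2:**
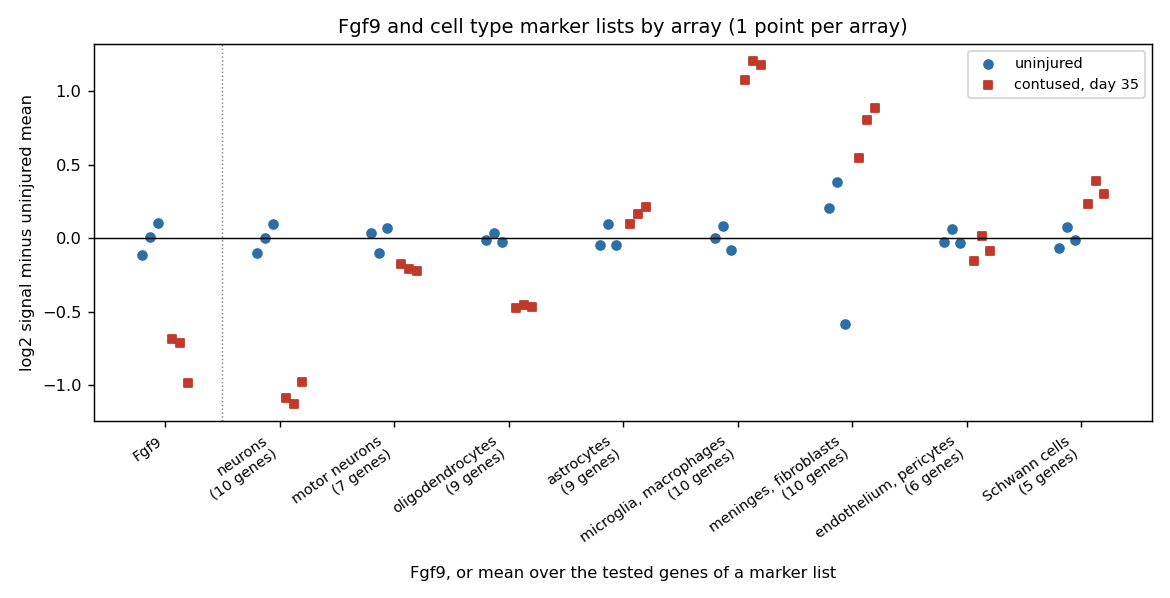
Log2 signal minus the uninjured mean, 1 point per array, for Fgf9 and for the mean over the tested genes of each cell type marker list, with uninjured arrays as circles and contused arrays as squares. On the contused arrays Fgf9 lies at -0.98 to -0.68 and the neuron list at -1.13 to -0.97, while the microglia and macrophage list lies at 1.08 to 1.20.

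The genes whose centred log2 profiles over the 6 arrays lay nearest to that of Fgf9, among 4801 singly named probe sets above the floor on every array, were Rnf157, Uchl1 and Acly. Rnf157 encodes a ubiquitin ligase, Uchl1 a ubiquitin hydrolase abundant in neurons and Acly the enzyme that makes cytosolic acetyl-CoA from citrate. Their root mean square distances were 0.039, 0.044 and 0.061 log2 units. Rnf157 gave 361 ± 43.1 against 618 ± 60.3 in uninjured cord, Uchl1 1167 ± 146 against 2116 ± 213, and Acly 1009 ± 51.0 against 1717 ± 91.0. The likeness is a description of 6 arrays that fall into separate groups.

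The other ligands gave no call. Fgf1, which like Fgf2 lacks a classical secretion signal, gave 185, 193 and 208 on the uninjured arrays and 254, 210 and 179 on the contused arrays. Contused arrays 1 and 2 lay above all uninjured ones, but contused array 3 lay below them, so the groups overlapped. The log2 change of Fgf1 was 0.12 (SE 0.16, 95% interval -0.24 to 0.48), with an adjusted p of 0.674 in limma. Without contused array 1 it was -0.0093, so its sign rested on that array.

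Fgf2, a ligand known to act on glia and on new vessels, was measured by a pair of probe sets. M22427_at gave 141, 94.3 and 129 in uninjured cord and 162, 124 and 136 after contusion. The groups overlapped, with the lowest value on uninjured array 2. The log2 change was 0.23 (SE 0.18, 95% interval -0.18 to 0.63), with an adjusted p of 0.459 in limma, and it was 0.053 without uninjured array 2. The interval runs from a 1.13-fold fall to a 1.55-fold rise, so changes of Fgf2 between these sizes lie within the error of these arrays. The second probe set, X07285cds_s_at, lay at 20.8 to 32.3 on all 6 arrays, under the floor, and carries no comparison.

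Fgf5, a ligand known for ending the growth phase of hair, was dim. D64085_g_at gave 77.1, 43.9 and 56.2 in uninjured cord and 81.3, 88.8 and 76.3 after contusion. It was above the floor on 3 of 3 contused arrays and on 1 of 3 uninjured arrays, and contused array 3 lay just under uninjured array 1. Its log2 change was 0.30 (SE 0.13, 95% interval 0.02 to 0.59), a value that the floor makes smaller, with an adjusted p of 0.14 in limma. Set at the pooled 10th percentile, the floor gave a log2 change of 0.51 (adjusted p = 0.125). D64085_at, which is named for the same source sequence, lay at 36.1 to 53.2 on all arrays and was not tested.

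Fgf7, the keratinocyte growth factor that mesenchymal cells make for epithelia, gave 54.7, 51.7 and 51.6 in uninjured cord and 52.3, 71.2 and 58.4 after contusion. Only contused array 2 was above the floor, so Fgf7 was not tested.

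Receptor signals were those of Fgfr1 and Fgfr2. Over their 7 probe sets the median log2 change was 0.17, and none passed the threshold. All 3 Fgfr1 probe sets had log2 changes above 0, while those of Fgfr2 lay on both sides of 0.

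Fgfr1 encodes the receptor bound by Fgf1 and Fgf2 on many cell types. S54008_i_at gave 191, 341 and 236 in uninjured cord and 298, 429 and 342 after contusion. Uninjured array 2 lay within the contused range and uninjured arrays 1 and 3 lay below it. The mean was 256 ± 76.9 against 356 ± 66.7 after contusion. The log2 change was 0.50 (SE 0.22, 95% interval 0.02 to 0.99), with an adjusted p of 0.15 in limma. Without uninjured array 2 the log2 change was 0.73 and passed (adjusted p = 0.0409). It was 0.31 without uninjured array 1 (adjusted p = 0.403) and 0.36 without contused array 2 (adjusted p = 0.404).

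The other Fgfr1 probe sets gave smaller differences. AF000144_at read 134, 111 and 111 in uninjured cord and 136, 151 and 143 after contusion. Its groups did not overlap, though uninjured array 1 and contused array 1 were nearly level. The log2 change was 0.28 (SE 0.14, 95% interval -0.04 to 0.59), with an adjusted p of 0.228 in limma. D12498_s_at read 367, 452 and 364 in uninjured cord and 312, 461 and 599 after contusion. Contused arrays 1 and 3 held the lowest and the highest value of the 6, and the log2 change was 0.17 (SE 0.22, 95% interval -0.31 to 0.65; adjusted p = 0.654, limma). Without contused array 3 it was -0.048. Whether the 3 probe sets differ from each other was not tested. A probe set named for the pseudogene copy Fgfr1-ps1 read 61.9 to 82.4 in uninjured cord and 72.9 to 98.8 after contusion (log2 change 0.17, adjusted p = 0.503), and sequence shared between it and Fgfr1 was not tested.

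Meninges and fibroblast markers had mean log2 levels of 0.54, 0.81 and 0.88 on contused arrays 1, 2 and 3, and 0.20, 0.38 and -0.58 on the uninjured arrays, relative to the uninjured mean. Fgfr1 D12498_s_at was highest on contused array 3, and S54008_i_at and AF000144_at were highest on contused array 2. The markers were lowest on uninjured array 3. The lowest Fgfr1 values were on contused array 1 for D12498_s_at and uninjured array 1 for S54008_i_at. For AF000144_at, uninjured arrays 2 and 3 were lowest and nearly level (110.8 and 111.0). The part of these markers in the Fgfr1 values was not tested.

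Fgfr2 encodes a receptor of oligodendrocytes and epithelia whose splice forms bind different ligands. L19112_at gave 184, 309 and 235 in uninjured cord and 257, 246 and 224 after contusion. The contused values lay inside the uninjured range, and the log2 change was 0.03 (SE 0.19, 95% interval -0.39 to 0.45; adjusted p = 0.943, limma). Its sign turned without contused array 1 (-0.016) and without uninjured array 1 (-0.15). L19112_g_at, named for the same source sequence, gave 210, 260 and 215 against 228, 200 and 196 after contusion (log2 change -0.13, 95% interval -0.46 to 0.20). Uninjured array 2 was the highest of the 6 on both.

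The remaining Fgfr2 probe sets also overlapped between groups. L19107_s_at gave 127, 103 and 129 in uninjured cord and 147, 121 and 135 after contusion, a log2 change of 0.17 (95% interval -0.16 to 0.51; adjusted p = 0.502, limma). Z35138cds_s_at gave 157, 253 and 196 against 127, 176 and 215, a log2 change of -0.23 (95% interval -0.73 to 0.27; adjusted p = 0.551, limma). These values moved with single arrays: Z35138cds_s_at was at -0.026 without contused array 1 and at -0.41 without contused array 3, L19107_s_at at 0.068 without uninjured array 2, and L19112_g_at at -0.032 without uninjured array 2. Of the oligodendrocyte markers on these arrays 5 of 9 fell, and their part in the Fgfr2 values was not tested.

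**Figure D3:**
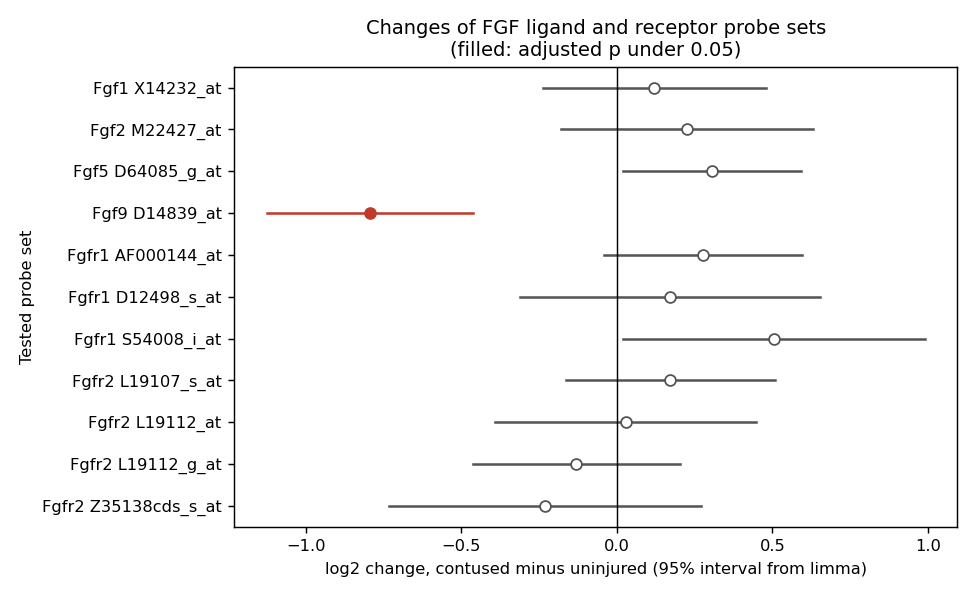
Log2 change, contused minus uninjured, of the 11 tested FGF ligand and receptor probe sets, with 95% intervals from limma and filled points for an adjusted p under 0.05. Fgf9, at -0.79, is the one filled point, and the other 10 lie between -0.23 and 0.50.

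The rest of the pathway was read from a list of 105 genes, of which 52 were on the array and 46 were tested by their brightest probe set. Of these, 3 rose and 1 fell, against 7.0% and 9.91% of all genes tested, and the median log2 change was 0.08 against -0.016 for all genes. The risen genes were Dusp6, Akt2 and Sdc4, and the fallen gene was Pdpk1. At an unadjusted p of 0.05 in limma there were 10 of the 46, against 30.3% of all probe sets tested. The count of 4 rested on single arrays. It was 2 without contused array 1, 0 without contused array 2, and 1 without uninjured array 1 or without uninjured array 3. With dim probe sets kept in the fit it was also 1.

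Dusp6 encodes the phosphatase that switches off ERK and is itself induced by FGF and other signals through ERK. It read 59.0, 129 and 117 in uninjured cord and 178, 262 and 232 after contusion, with no overlap and with uninjured array 1 under the floor. It rose 2.27-fold (log2 change 1.18, SE 0.27, adjusted p = 0.0119 in limma). Its second probe set, X94185cds_s_at, rose too (log2 change 1.07, SE 0.21, adjusted p = 0.00601). The call of the brighter probe set was lost without contused array 2 (adjusted p = 0.0597) and when dim probe sets were kept in the fit (adjusted p = 0.13). Of the other 6 feedback inhibitors tested, 0 passed.

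Sdc4 encodes syndecan-4, a heparan sulfate carrier that helps FGF bind its receptor. It read 720, 852 and 746 in uninjured cord and 1038, 1400 and 964 after contusion, 1.45-fold higher (log2 change 0.54, SE 0.16, adjusted p = 0.0391 in limma). Of its 3 tested probe sets 2 passed, and the third had a log2 change of -0.05. The call was lost with each of contused arrays 1 and 2 or uninjured arrays 1, 2 and 3 left out (adjusted p up to 0.135) and with dim probe sets kept (0.143). The other 14 surface partners tested, among them other proteoglycans, heparan sulfate enzymes and adhesion molecules, had 0 past the threshold by their brightest probe set. A dimmer probe set of the glypican gene Gpc3 passed (57.7 ± 3.59 to 83.4 ± 10.6, log2 change 0.43, adjusted p = 0.0326 in limma). It was chosen once its value had been seen, and the brightest Gpc3 probe set had a log2 change of -0.30 (adjusted p = 0.375).

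Inside the cell, Akt2, a kinase of the survival and glucose uptake pathway, rose from 103, 111 and 103 to 150, 153 and 149 (log2 change 0.51, SE 0.13, adjusted p = 0.0198 in limma). Its second probe set had a log2 change of 0.29 and did not pass. Pdpk1, the kinase that activates AKT proteins, read 104, 80.7 and 89.3 in uninjured cord and 67.2, 68.1 and 49.7 after contusion (log2 change -0.47, SE 0.13, adjusted p = 0.0282 in limma). The Akt2 call was lost without contused array 2, uninjured array 1 or uninjured array 3 (adjusted p up to 0.0922). The Pdpk1 call was lost with any 1 array left out except uninjured array 2 (up to 0.085), with arrays scaled to one trimmed mean (0.0582), a floor at the pooled 10th percentile (0.0525) and dim probe sets kept (0.0672). Of the 6 adaptors 0 passed by their brightest probe set. Grb2, which links the receptor complex to RAS activation, had a log2 change of -0.31 (adjusted p = 0.191), and Plcg1, phospholipase C gamma 1, one of 0.09 (adjusted p = 0.748). Sos1, the exchange factor that loads RAS, had a dimmer probe set that fell from 149 ± 31.4 to 85.7 ± 10.2 (log2 change -0.79, adjusted p = 0.011 in limma). It was picked once its value had been seen, and the brightest Sos1 probe set had a log2 change of -0.39 and did not pass.

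Transcription targets gave calls that depended on the probe set for Fos and Junb only. By their brightest probe sets 0 of 5 passed in limma, also 0 at an unadjusted p of 0.05, with Egr1 at 304 ± 71.2 against 248 ± 44.8 and Fos at 257 ± 14.8 against 238 ± 28.9. Other probe sets of Fos did pass: X06769cds_g_at rose from 117 ± 12.5 to 273 ± 46.2 (log2 change 1.22, adjusted p = 0.000735) and X06769cds_at from 89.7 ± 3.95 to 143 ± 26.7. A dimmer probe set of Junb rose from 56.9 ± 6.59 to 100.2 ± 18.4 (log2 change 0.67, adjusted p = 0.0083 in limma). These were singled out after their values were seen. Taking for each gene the probe set of smallest p gave 6 higher and 2 lower of 46 genes. Many signals besides FGF induce these genes.

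**Figure D4:**
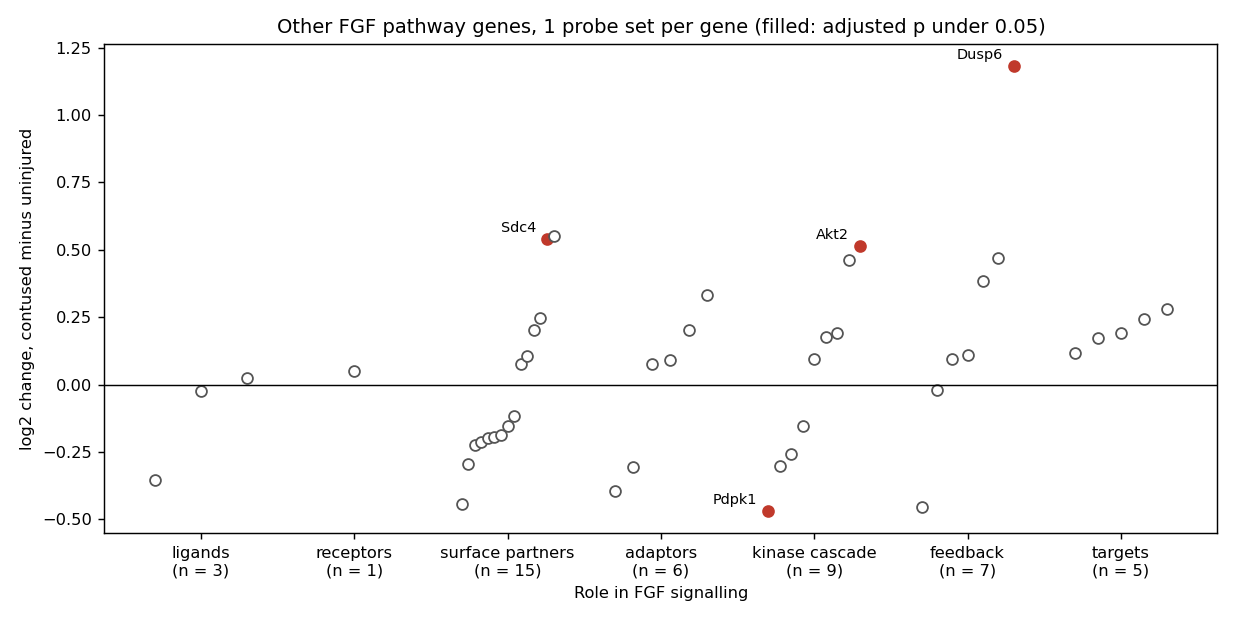
Log2 change, contused minus uninjured, of 46 FGF pathway genes other than Fgf1, Fgf2, Fgf5, Fgf7, Fgf9 and their receptors Fgfr1 to Fgfr3, by role, 1 brightest probe set per gene, with filled points for an adjusted p under 0.05 in limma. Dusp6 (1.18), Sdc4 (0.54) and Akt2 (0.51) are filled above 0 and Pdpk1 (-0.47) below.

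Further ligands and receptors on the array gave no call either: 0 of 3 ligand genes and 0 of 1 receptor gene tested, with 1 of them, Fgf17 (log2 change -0.36, adjusted p = 0.142), at an unadjusted p of 0.05 in limma, and named for that. Fgf16 read 241 ± 31.0 against 243 ± 64.8 in uninjured cord (log2 change 0.024). Fgf18, a ligand of bone and brain, read 99.8 ± 1.82 against 102 ± 17.8 (log2 change -0.023, but 0.025 with arrays scaled to one trimmed mean). Fgfr4 read 49.9, 47.4 and 50.3 in uninjured cord and 63.2, 65.0 and 63.1 after contusion. The groups did not overlap, but all uninjured values lay under the floor, which reduced the log2 change to 0.05 (adjusted p = 0.769). A floor at the pooled 10th percentile gave 0.37 (adjusted p = 0.0966).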

How the data were processed

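The deposited table holds 1 linear intensity for each probe set and array; this unit was inferred from its skewed values, 21 to 32 of which are negative on each array. Details of the authors' probe summary, background correction and scaling are not given in the sources used here. Their 2% trimmed means differed by 9.03%, under the 10% set as the limit for rescaling, so values were used as deposited. There were 0 columns of other samples. Names were taken from the array's annotation, updated through gene identifiers to RefSeq symbols (GRCr8) for 6985 of 7006 singly named probe sets. The sources used here give no genome build for the array design.

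Of 8799 probe sets, 59 controls were left out. Values under the pooled 25th percentile were set to it (61.6, or 5.94 on the log2 scale), and 6705 probe sets with at least 3 of 6 arrays above it went into limma 3.58.1 under R 4.3.3 (lmFit, eBayes with an intensity trend, two-sided, no covariates; 4 residual degrees of freedom). Adjusted p-values are Benjamini-Hochberg values over all of them. No exact permutation test was run, since with 3 against 3 arrays its smallest p is 0.1. The number of arrays limits the precision. The procedure was tested on simulated data.

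Members and gene lists were chosen with earlier results of these data known. Named were all members; per pathway role, up to 3 risen and 3 fallen genes of smallest p, or else the 2 brightest; the 2 brightest of each marker list; and the 3 genes nearest to a called member. Fgf17, Sos1, Gpc3, Junb, Fgfr1-ps1, Isl2, Chat, Ache and the dimmer Fos probe sets fall outside this rule and were named after their values were seen. Alternatives changed the floor, filter, normalization, variance model, replicate block and arrays. Plots used Python 3.11.15 and matplotlib 3.10.9.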

Additional observations from a re-analysis of the deposited data

How the results depend on the processing

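Fgf9 kept its direction and its call under all 15 alternatives. The count of member probe sets past the threshold was 1 with each other floor, filter, normalization and variance model, and 1 to 2 with 1 array left out. With the replicate number as a block it was 2, since Fgfr1 S54008_i_at then passed (adjusted p = 0.0435). The labels give no meaning to the numbers, and deviations of same-numbered arrays correlated at 0.04, 0.22 and -0.24, so the arrays share only a number. The block moved the count over all probe sets from 1165 to 1200 and left that of pathway genes at 4. Without the filter on dim probe sets, 662 probe sets and 1 pathway gene passed. With 1 array left out, 659 to 1260 probe sets and 0 to 4 pathway genes passed. With the probe set of smallest p, 8 pathway genes passed, which that choice favours by construction.

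Signs turned only in values that were not past the threshold, nearly always with 1 array left out. The log2 changes then ran from -0.0093 (without contused array 1) to 0.24 for Fgf1, from -0.048 (without contused array 3) to 0.42 for Fgfr1 D12498_s_at, and from -0.15 (without uninjured array 1; -0.016 without contused array 1) to 0.22 for Fgfr2 L19112_at. They ran from -0.22 (without uninjured array 2; -0.079 without contused array 2) to 0.16 for Fgf16, from -0.16 to 0.090 (without uninjured array 1; 0.0041 without uninjured array 3) for Fgf18, and from -0.041 (without contused array 1) to 0.19 for Plcg1. With arrays scaled to one trimmed mean, Fgf18 was at 0.025. The cause was not tested. Signals near the floor limit Fgf5, Fgf7 and Fgfr4. Fgf17, Pdpk1, the brighter Dusp6 probe set and the dimmer probe sets of Junb and Gpc3 also had at least 1 array under the floor.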
